A study of Mus musculus with 4 samples.

Results

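Pol II peaks were examined at 10 genes whose products fold, modify, trim or crosslink collagen: Lox, Loxl1, Loxl2, Loxl3, Plod1, Plod2, P4ha1, P4ha2, Serpinh1 and Bmp1. The genes were chosen by name, with earlier results of these data known. All 10 were found among 21887 protein-coding genes on assembled chromosomes. For each gene, every listed peak inside its boundaries or within 5 kb of them was taken, together with the share of the gene's length that peaks covered and the place of each peak along the gene. A peak is an interval in which chromatin recovered with an antibody to RNA polymerase II (Pol II) was enriched. Positions are on mm10 (GRCm38).

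Cells that build bone secrete type I collagen in large amounts, and collagen needs a dedicated set of enzymes before and after secretion. In the endoplasmic reticulum, prolyl hydroxylases make the triple helix stable, lysyl hydroxylases prepare lysines for crosslinking and sugar attachment, and the chaperone HSP47 binds the folded helix. Outside the cell, procollagen proteinases remove the end pieces, and lysyl oxidases oxidise lysines so that neighbouring molecules become crosslinked.

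The chromatin came from primary osteoblasts of young mice, grown as bone-derived mesenchymal stem cells and kept for 3 days in osteogenic medium. The untreated group is 1 Pol II library whose title names WT osteoblasts and no treatment. The other group is 1 Pol II library from osteoblasts that received OSS_128167, an inhibitor of SIRT6, a chromatin deacylase. Each of the 2 conditions also had 1 input library without antibody, which was not analysed here as a sample of its own. OSS_128167 stands in the treatment entry of all 4 samples, so the untreated group rests on its title, and the word WT is absent from the titles of the other group, whose deposited peaks are named for SIRT6. The labels state no strain, sex, dose, length of treatment or pooling of animals. With 1 library per condition no test between conditions was possible, and every difference below lies between 2 peak lists and not between replicated groups.

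The untreated list held 1694 peaks and the OSS_128167 list 40748, of which 109 and 6568 had a false discovery rate (FDR) of at most 0.05. The lists give no read totals, so the sequencing depth is unknown, and a gene without a listed peak may still carry Pol II below the limit of calling. In the OSS_128167 list the osteoblast markers Runx2 and Sp7 had 63 and 4 peaks in the gene or within 5 kb, and Bglap, the third defining marker, had none. Of 9 osteoblast markers 6 had a peak there and 5 had one with an FDR of at most 0.05, where 46.7% and 15.6% of all protein-coding genes did. Markers of other cells had peaks too, at 4 of 4 stromal progenitor, 3 of 5 macrophage, 2 of 3 chondrocyte, 2 of 3 endothelial, 1 of 3 adipocyte and 0 of 3 osteoclast genes. At the FDR limit of 0.05 these counts were 2, 2, 1, 0, 0 and 0, and the macrophage genes were Cd68 (fold 8.19) and Adgre1 (fold 3.61). A peak in or near a gene thus did not separate osteoblast markers from those of most other cells. Untreated peaks lay at 2 of 9 osteoblast markers, with 2 at Runx2 and 6 at Col1a2 but 0 at Sp7 and Bglap. They also lay at 1 of 3 adipocyte markers, with 3 at Pparg, which had 0 in the OSS_128167 list. Markers of the other cell types had 0. No marker had an untreated peak with an FDR of at most 0.05, and 2.71% of all protein-coding genes had an untreated peak at any FDR. The part that other cells had in the results was not tested.

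None of the collagen enzyme genes had a peak in the untreated list, and 6 had one in the OSS_128167 list. The 6 were Serpinh1 with 4 peaks, Plod2 with 3, P4ha1 and P4ha2 with 2 each, and Lox and Loxl2 with 1 each. Loxl1, Loxl3, Plod1 and Bmp1 had no peak in either list. Among all protein-coding genes, 2.71% had such an untreated peak and 46.7% such an OSS_128167 peak. Among the 14424 genes of 5 to 100 kb, the length range in which all 10 genes lie, the shares were 2.02% and 48.1%. The count of 6 of 10 is therefore near the share of all genes, and the count of 0 lies in a list that reached few genes of any kind.

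**Figure D1:**
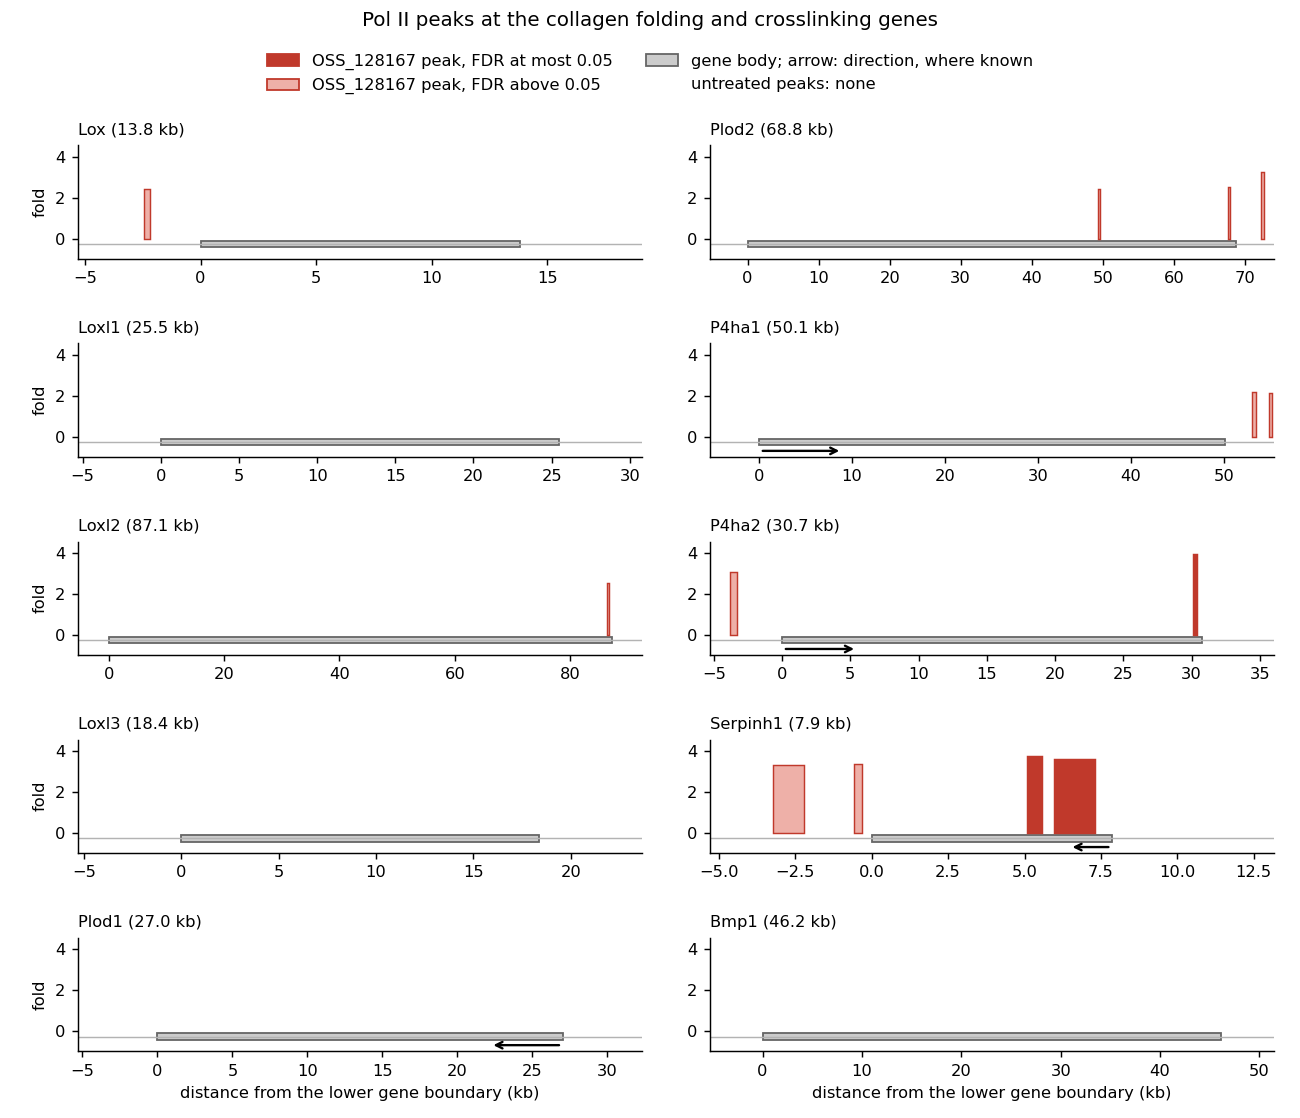
Peaks of the OSS_128167 list at the 10 genes. The horizontal axis is the distance from the lower gene boundary in kb, with 5 kb on each side, the vertical axis is the authors' fold enrichment of each peak (a ratio), the grey bar is the gene, and the arrow gives the direction of transcription for the 4 genes with a known strand. Dark bars have an FDR of at most 0.05, pale bars a higher one, and the narrowest bars are widened slightly to be visible; Serpinh1 has 4 peaks, and Loxl1, Loxl3, Plod1 and Bmp1 have none.

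The RefSeq promoter table, which gives strand and start, matched 4 of the 10 genes: Serpinh1, P4ha1, P4ha2 and Plod1. These 4 can be read from start to end, while for the other 6 positions are counted from the lower coordinate and a start was not assigned. No peak of either list overlapped the 300 bp promoter windows of the 4 genes, which run from 250 bases before the start to 50 after it. Within 1 kb of a start, a wider span, 5.7% of protein-coding genes in the promoter table had an OSS_128167 peak and 0.189% an untreated one. The count of 0 of 4 is therefore not particular to these genes, and no share is given for the 300 bp windows. The upstream sequences of the 4 genes are shown because they are the windows in which a promoter peak was looked for, with Plod1 as the gene that had no peak at all. Each is from RefSeq GRCm38.p6, written 5′ to 3′ on the strand of the gene, and holds the bases of the window that lie outside the gene's boundaries. Capitals mark matches to a searched motif on either strand, and matches that run past the printed bases are left in lower case.
Serpinh1, chr7:99353240-99353489, minus strand: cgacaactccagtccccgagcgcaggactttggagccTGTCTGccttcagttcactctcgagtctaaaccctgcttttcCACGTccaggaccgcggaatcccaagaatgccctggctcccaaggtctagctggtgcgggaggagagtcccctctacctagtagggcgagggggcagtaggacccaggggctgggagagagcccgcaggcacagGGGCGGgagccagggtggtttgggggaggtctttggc
P4ha2, chr11:54100674-54100923, plus strand: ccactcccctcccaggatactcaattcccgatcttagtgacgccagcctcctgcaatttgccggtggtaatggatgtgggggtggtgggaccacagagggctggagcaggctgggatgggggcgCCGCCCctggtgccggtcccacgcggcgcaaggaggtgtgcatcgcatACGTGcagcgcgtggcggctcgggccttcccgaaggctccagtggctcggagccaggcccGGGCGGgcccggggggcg
P4ha1, chr10:59323046-59323196, plus strand: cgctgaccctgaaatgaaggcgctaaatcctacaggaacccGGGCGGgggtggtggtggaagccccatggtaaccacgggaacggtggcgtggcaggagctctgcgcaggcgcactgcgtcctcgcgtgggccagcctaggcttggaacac
Plod1, chr4:147936777-147937026, minus strand: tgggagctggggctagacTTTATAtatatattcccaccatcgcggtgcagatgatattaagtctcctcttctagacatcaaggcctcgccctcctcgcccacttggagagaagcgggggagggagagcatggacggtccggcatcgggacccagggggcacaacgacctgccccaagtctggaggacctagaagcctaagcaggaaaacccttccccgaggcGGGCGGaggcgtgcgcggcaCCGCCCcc

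The GC box GGGCGG was found in all 4 of these 300 bp windows, and in 35.7% of the 32851 promoters in the table. The hypoxia response core ACGTG was in the windows of Serpinh1, P4ha1 and P4ha2, against 19.6% of all promoters. The match in P4ha1 begins 16 bases before the listed start and lies inside the gene's outer boundary, so it is not among the bases printed. The TATA box motif TATAAA matched in Plod1, 232 bases before the start, and in P4ha1 after the start, against 13.6% of promoters. CAGACA, a SMAD-type element, matched in Serpinh1 alone, against 21.0%. CCAAT and the cAMP response element TGACGTCA matched in 0 of 4, against 37.4% and 1.79%. The windows were 62.3 to 70.3% G and C, where the median promoter had 52.7%. All motifs were searched on both strands, and none of them contains another. These are matches of letters in 4 windows and not measured binding sites.

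Serpinh1, which encodes the collagen chaperone HSP47, had the most peaks and by far the highest covered share. The gene spans 7.87 kb on chromosome 7 from 99345375 to 99353239 and is read from the higher coordinate to the lower. It is the shortest of the 10 genes, whose median is 28.9 kb, and a covered share is divided by length. Peaks of the OSS_128167 list covered 1829 bp, or 23.3% of its length, and 1.52% of all protein-coding genes were covered at least as much. Among genes of 5 to 100 kb that share was 0.638%. In bp the covered length was also the largest of the 10, with Plod2 next at 539 bp. In the untreated list the covered share was 0, and the nearest peak lay 6.88 Mb away.

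The peak nearest the Serpinh1 start was 1358 bp long, from 99351327 to 99352684. It ended 555 bp inside the gene, and had a fold of 3.61, an FDR of 0.0212 and a pileup of 11. A second peak of 471 bp, from 99350470 to 99350940, had a fold of 3.77, an FDR of 0.00852 and a pileup of 12. With the gene cut into 10 equal bins from its start, bin 1 was covered over 29.5% of its length, bin 2 over 100%, bin 3 over 51.0% and bin 4 over 52.2%. Bins 5 to 10 held no peak.

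The other 2 Serpinh1 peaks lay past its end. One of 241 bp stood 332 to 572 bp past the boundary, with a fold of 3.36 and an FDR of 0.0844. The other, of 1025 bp, stood 2208 to 3232 bp past it, with a fold of 3.31 and an FDR of 0.0710. A further peak just outside the window, 6.27 kb past the end, had a fold of 3.23 and an FDR of 0.122. No other annotated gene lay within 5 kb of any of the 4 counted peaks. The nearest protein-coding neighbour on that side, Map6, ended at 99337137, 8238 bp from Serpinh1. The 1025 bp peak, which began at 99342143, was only just over 5 kb from Map6. The further peak, from 99338640 to 99339103, lay nearer to Map6 than to Serpinh1, so it could not be assigned to Serpinh1.

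The prolyl 4-hydroxylase genes P4ha1 and P4ha2 encode alternative catalytic subunits of the same enzyme, and their peaks lay in different places. P4ha2 (chromosome 11, 54100924 to 54131668, 30.7 kb) had its stronger peak in the last 1 kb. That peak ran from 54131030 to 54131311 and ended 357 bp before the gene's end, with a fold of 3.94, an FDR of 0.00775 and a pileup of 11. It had the highest fold of the 13 peaks at the 10 genes, and 4.90% of the OSS_128167 list had a higher fold. The other P4ha2 peak, of 516 bp, lay 3324 to 3839 bp before the start, with a fold of 3.07 and an FDR of 0.159.

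P4ha1 (chromosome 10, 59323197 to 59373304, 50.1 kb) had no peak inside the gene. Its 2 peaks lay 2956 to 3335 bp and 4747 to 5070 bp past the end, so the second crosses the 5 kb limit and is the outermost peak counted. Their folds were 2.18 and 2.12, the lowest of the 13, although their pileups were 13 and 11. FDRs were 0.501 and 0.676. A 380 bp peak with a pileup of 13 at P4ha1 thus had a lower fold than a 282 bp peak with a pileup of 11 at P4ha2. The fold is a ratio to the authors' background, which the lists do not print. The 4 peaks of this pair touched no other annotated gene within 5 kb.

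Plod1 and Plod2 encode lysyl hydroxylases, and Plod2 acts on the telopeptide lysines that later form crosslinks. Plod2 (chromosome 9, 92539636 to 92608428, 68.8 kb) had 3 peaks. The first lay inside the gene at 71.9% of its length from the lower boundary, from 92588981 to 92589206, with a fold of 2.41 and an FDR of 0.676. The second lay 917 to 1229 bp inside the upper boundary, with a fold of 2.52 and the same FDR.

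The third Plod2 peak lay 3535 to 3858 bp above the upper boundary, with a fold of 3.23 and an FDR of 0.159. That peak and the second were within 5 kb of the pseudogene Gm2495. Covered share was 0.784%, and 20.2% of protein-coding genes were covered at least as much. Plod1 (chromosome 4, 147909753 to 147936776, 27.02 kb) had no peak, and the nearest OSS_128167 peak lay 31.0 kb away, in Mfn2, with an FDR of 0.377.

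The lysyl oxidase genes had 2 peaks in all, neither with an FDR of at most 0.05. Lox encodes the founding lysyl oxidase of the family, and its 1 peak lay outside the gene (chromosome 18, 52516060 to 52529867, 13.8 kb). It stood 2200 to 2425 bp below the lower boundary and had a fold of 2.41, an FDR of 0.676 and a pileup of 7. The next peak on that side, 20.02 kb from Lox and outside any annotated gene, was stronger, with a fold of 4.67 and an FDR of 0.000406.

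Loxl2 (chromosome 14, 69608692 to 69695834, 87.1 kb) is the longest of the 10 genes. Its 1 peak, from 69695019 to 69695337, lay 497 to 815 bp inside the upper boundary, with a fold of 2.52, an FDR of 0.676 and a pileup of 6. It was also within 5 kb of Mir6950, a microRNA gene inside Loxl2, and of R3hcc1, whose lower boundary lies 1470 bp above Loxl2. The peak could therefore not be assigned to 1 of these genes. Counting only peaks with no other protein-coding gene within 5 kb, 5 of the 10 genes had one. No share of all protein-coding genes is given under this filter, so that count has nothing to be set against.

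Loxl1 (chromosome 9, 58287723 to 58313212) had the largest gap, with the nearest OSS_128167 peak 104 kb away. At Loxl3 (chromosome 6, 83034205 to 83052566), which overlaps Htra2 and lies within 5 kb of Dok1, Aup1 and M1ap, the nearest peak was 31.2 kb away. Bmp1 encodes the proteinase that removes the carboxyl-terminal propeptide of procollagen. At Bmp1 (chromosome 14, 70474555 to 70520716), 225 bp from Sftpc, the nearest peak was 29.6 kb away. The nearest peaks of these 3 genes had FDRs of 0.377, 0.227 and 0.377.

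By covered share in the OSS_128167 list the order was Serpinh1 at 23.3%, P4ha2 at 0.917%, Plod2 at 0.784% and Loxl2 at 0.366%, with the other 6 at 0. The median over the 10 genes was 0%, as it was over all protein-coding genes. With 1 library there is no spread against which neighbours in this order could be set apart. Serpinh1 alone exceeded 1%. The type I collagen genes that these enzymes serve were covered over 98.2% (Col1a1) and 97.4% (Col1a2) in the same library.

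**Figure D2:**
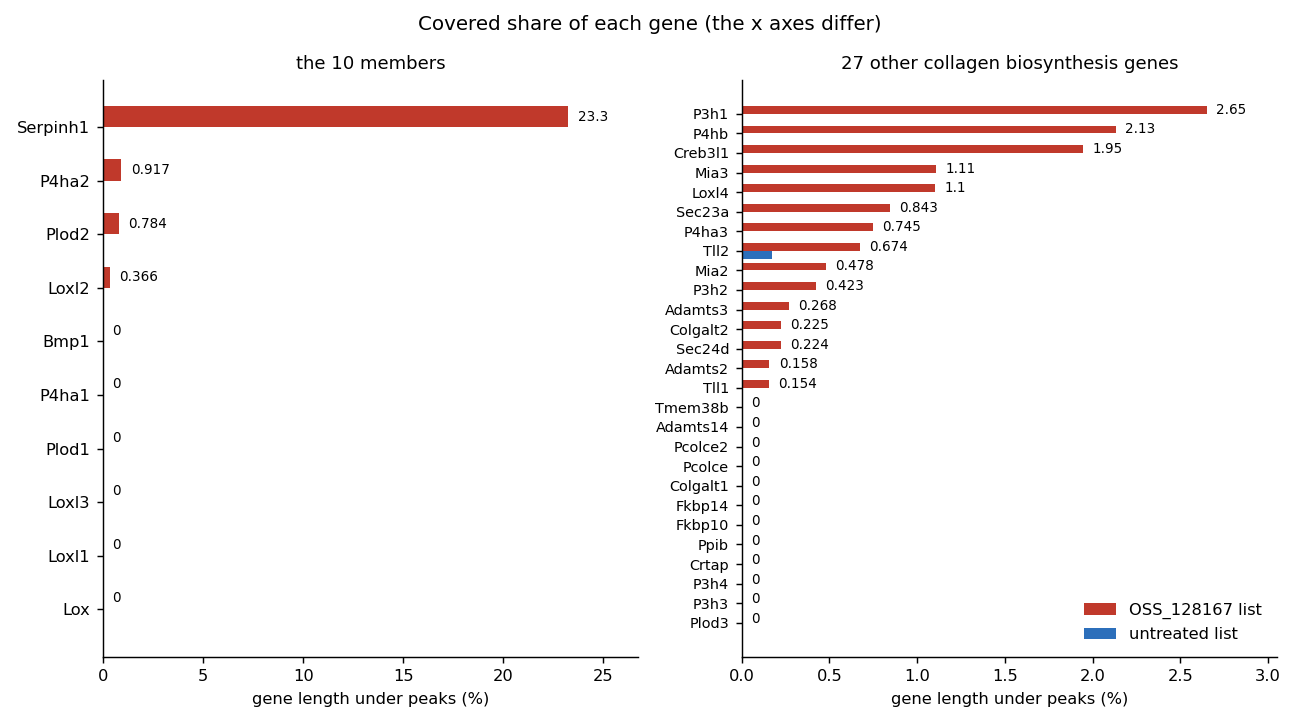
Share of each gene's length under peaks, in percent, for the 10 genes (left) and for 27 other genes of collagen biosynthesis (right), with the OSS_128167 list in red and the untreated list in blue. The axes differ: Serpinh1 reaches 23.3%, while P3h1, the highest of the other genes, reaches 2.65%.

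The 13 peaks were of ordinary strength for their list. Their folds ran from 2.12 to 3.94 with a median of 3.07, and the whole OSS_128167 list had a median of 2.87 and a maximum of 22.8. Of the 13 peaks, 6 lay at or below that median and 7 above it. The 4 Serpinh1 peaks all lay above, as did both P4ha2 peaks and the outer Plod2 peak. Every peak of Lox, Loxl2 and P4ha1 lay below. Lengths ran from 226 to 1358 bp with a median of 324 bp, and pileups from 6 to 13.

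Several of these folds were not particular to a gene. The peak at Lox and the first at Plod2 had the same fold and pileup, a pair of values shared by 1386 peaks of the list. The peak at Loxl2 and the second at Plod2 shared their values with 3541 peaks, and the outer Plod2 peak with 2843. Serpinh1's 2 inside peaks shared theirs with 46 and 210, and the P4ha2 end peak with 14. Peaks with identical values cannot be ranked against each other.

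**Figure D3:**
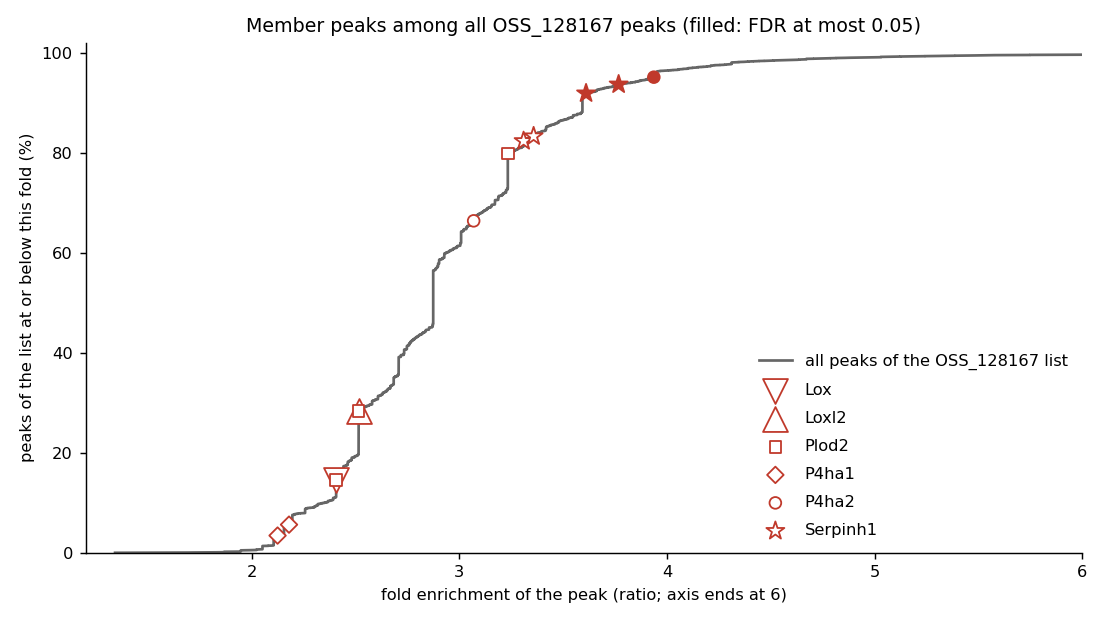
Fold enrichment (horizontal axis, a ratio) of the 13 peaks against the percent of OSS_128167 peaks with that fold or a lower one (vertical axis). The grey line is the whole list, symbols are the genes, and filled symbols have an FDR of at most 0.05; P4ha1 lies at the bottom, and the P4ha2 end peak and both inside peaks of Serpinh1 lie near the top, and steps in the line are folds shared by many peaks.

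At an FDR of at most 0.05, 2 of the 10 genes had a peak, P4ha2 with 1 and Serpinh1 with 2, where 15.6% of all protein-coding genes had one. Both genes also passed an FDR of at most 0.01, where the share of all genes was 7.38%. The untreated count was 0 at either limit, where 0.142% and 0.0914% of genes had a peak. At the limit of 0.05 the count of 2 of 10 is near the share over all genes, and at 0.01 it is above that share but rests on 2 genes.

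By position, 6 of the 13 peaks lay inside a gene and 7 outside within 5 kb. Peaks inside the gene were found at Loxl2, Plod2, P4ha2 and Serpinh1, that is at 4 of 10, where 34.4% of protein-coding genes had one. The same 4 genes had a peak within 1 kb of a boundary, where 14.1% of all genes and 15.4% of those of 5 to 100 kb had one. At an FDR of at most 0.05 P4ha2 and Serpinh1 had one, against 5.22% of all genes. Untreated peaks, of which none of the 10 genes had any, gave shares of all genes of 2.17% for the gene body and 0.393% for the boundaries. For P4ha2 the boundary with a peak was the end of the gene. Without an FDR limit, both ends of Serpinh1 and the upper boundaries of Loxl2 and Plod2 had a peak. At the limit of 0.05 Serpinh1 kept only the peak near its start, as the one near its end had an FDR of 0.0844.

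Among the 4 genes with a known strand, 1 had a peak within 1 kb of its start, Serpinh1, where 5.7% of the protein-coding genes in the promoter table had one and 2.43% had one at the FDR limit of 0.05. Untreated peaks gave a count of 0 and a share of 0.189%. The Serpinh1 peak came no nearer than 555 bp, so within 300 bp of the start the count was 0, a distance for which no share of all genes is given. Peaks in the 5 kb past the end were found at 2 of 4 genes, P4ha1 and Serpinh1, and peaks in the 5 kb before the start at 1 of 4, P4ha2. Of oriented protein-coding genes of 5 to 100 kb, 22.8% had a peak in the 5 kb past the end and 7.46% in the 5 kb before the start. In the first and the last 1 kb the shares were 3.06% and 7%. In the whole list, then, peaks past the end were also more frequent than peaks before the start, and counts over 4 genes cannot be set apart from these shares.

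In the untreated list the nearest peak to any of the 10 genes lay 82.2 kb from Loxl3, in M1ap. Distances were 131 kb at P4ha2, 159 kb at P4ha1 and 225 kb at Plod1. At Loxl1, Plod2, Serpinh1 and Lox they were 1.53, 3.84, 6.88 and 12.2 Mb. At Loxl2 and Bmp1, both on chromosome 14, they were 26.1 and 26.9 Mb, measured to the same peak. Distances for genes in general were not computed. All of these nearest peaks had an FDR of 1, as did 81.3% of the whole untreated list. With no untreated peak that near, the 13 OSS_128167 peaks could not overlap one, so their lack of overlap is not a separate result.

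None of the other genes of collagen biosynthesis was covered as far as Serpinh1. Of 27 such genes, the OSS_128167 list placed a peak in or within 5 kb of 20, and the untreated list of 1, where the shares of all protein-coding genes were 46.7% and 2.71%. The difference between 20 of 27 and 6 of 10 was not tested. The 20 held 43 peaks, and the median covered share over the 27 genes was 0.158%. Their median length was 36.0 kb, against 28.9 kb for the 10 genes and 17.2 kb for all protein-coding genes, and a longer gene has more room for a peak. Per 100 kb of gene and flank they had 2.20 peaks, the 10 genes 2.73 and all protein-coding genes 2.17. Protein-coding genes of 5 to 100 kb also had 2.73, so per length the 10 genes were no denser in peaks than genes of their length range.

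At an FDR of at most 0.05, 10 of the 27 had a peak, against 15.6% of all protein-coding genes. The highest fold was at Tll2, which encodes a proteinase related to BMP1, with 4.87 and an FDR of 7.62e-06, in a peak also within 5 kb of Tm9sf3. Sec23a, a coat protein of the vesicles that carry procollagen, followed at 3.92 with an FDR of 0.0125. That peak lay 3394 to 3761 bp past the end of Sec23a, and the 2 peaks inside the gene had FDRs of 0.377 and 0.191. Then came Tll1 at 3.64 and Colgalt2, a collagen galactosyltransferase, at 3.61. Loxl4, a further lysyl oxidase, had 3.44 (FDR 0.0360), and P4hb, the partner subunit of P4ha1 and P4ha2, had 3.43 (FDR 0.0117). That P4hb peak lay 2866 to 3259 bp before the start and within 5 kb of Arhgdia. A weaker peak, with a fold of 2.78 and an FDR of 0.159, made P4hb the 1 gene of 21 with a known strand that had a peak within 1 kb of its start.

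The remaining 4 of the 10 were P4ha3, Crtap, Creb3l1 and Fkbp10. P4ha3, Crtap and Creb3l1 each had a highest fold of 3.59 and an FDR of 0.04997, just under the limit, a value shared by 1402 peaks of the list. The 3 peaks counted for Fkbp10 (highest fold 3.51, FDR 0.0285) all lay in the neighbouring gene Nt5c3b, and the Crtap peak lay in the non-coding gene 4930520O04Rik. At an FDR of at most 0.01, Tll2 alone passed, against 7.38% of all protein-coding genes.

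Plod3, P3h3, Ppib, Fkbp14, Pcolce2, Adamts14 and Tmem38b had no peak in the OSS_128167 list. In the untreated list the 1 peak was inside Tll2, with a fold of 2.16 and an FDR of 1, and it did not overlap the OSS_128167 peaks of that gene. Of the 43 peaks, 24 lay inside the genes, 13 past an end and 1 before a start, and the other 5 beside genes without a known strand.

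**Figure D4:**
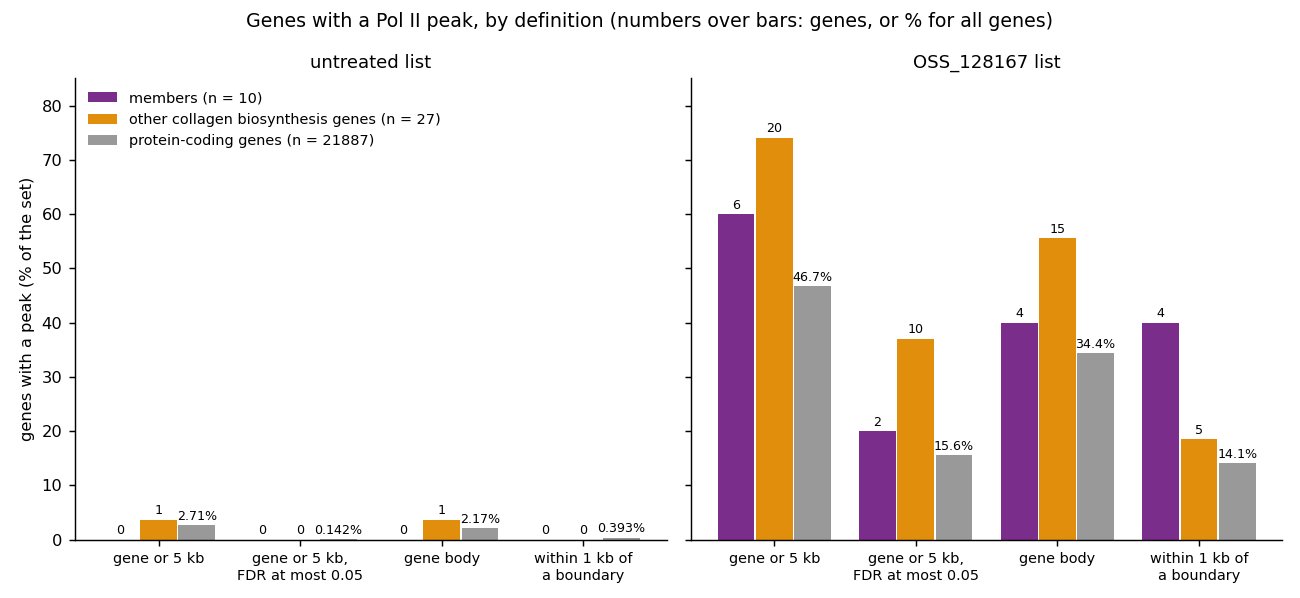
Share of genes with a peak in percent, for the 10 genes, the 27 other collagen biosynthesis genes and all 21887 protein-coding genes, in the untreated list (left) and the OSS_128167 list (right), under 4 definitions along the horizontal axis. Numbers over the bars are genes for the 2 small sets and percent for all genes; in the untreated list the 10 genes have 0 under each definition.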

How the data were processed

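Pol II ChIP-seq peak lists were analysed for 1 library without and 1 with OSS_128167. Chromatin was fixed for 10 min and fragments of 250 to 450 bp were selected, per the labels' protocols. The submitters' processing notes name fastp, BWA and the build mm10. Which caller made the peaks, with which limits and inputs, is not given in the sources used here. The deposited fold enrichment is a ratio over the authors' background, and the deposited p-value and FDR of a peak, like its pileup signal, belong to its own list. They were used to describe, rank and filter peaks within a list. Each list was made per library, and its largest p-value was 0.00956 (untreated) or 0.00999 (OSS_128167), so both are permissive.

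Boundaries of genes were those of RefSeq for GRCm38.p6, in a table without exons, and strand and start came from the promoter table of that build. Overlap required 1 bp. The 10 genes, the lists of other genes and the comparisons were chosen with earlier results of these data known. All 10 genes were named. Of the 27 others, the named ones were those of highest fold, those with an FDR of at most 0.05 and, added after their values were seen, those without a peak. Of the cell type markers, the 3 defining osteoblast genes were named, and Cd68, Adgre1, Col1a2 and Pparg after their values were seen. An FDR of at most 0.01 was added after the data were seen. Python 3.11.15, numpy 2.4.6, pandas 2.3.3 and matplotlib 3.10.9 were used.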

Additional observations from a re-analysis of the deposited data

How the results depend on the processing

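The count of genes with a peak in the OSS_128167 list was 6 and fell to 2 at an FDR of at most 0.05, at a p-value of at most 1e-05 and at an FDR of at most 0.01. It was 4 with a window of 1 kb or the gene body alone, and 6 by peak centre or when most of the peak had to lie in the window. Of all protein-coding genes, 34.4% had a peak in the gene body. In the gene or within 5 kb, 15.6% and 7.38% had one at FDRs of at most 0.05 and 0.01. For the other settings no share of all genes is given. The 1 gene with a start peak, Serpinh1, was lost within 300 bp and by peak centre (0 in both). The median covered share of 0% became 0.639% with 5 kb on each side, a setting for which no value over all genes is given. Among the other collagen biosynthesis genes the count of 20 became 10 and 1 at FDRs of at most 0.05 and 0.01, and the untreated count of 1 became 0 at both. In the untreated list the 10 genes stayed at 0 under all 8 settings of the peak count. The lower counts follow from fewer peaks being admitted, and the higher median from adding the flanks, which hold 7 of the 13 peaks. No replicate could be left out, and no paired analysis was possible because each condition has 1 library. Depth is unknown, so missing peaks bound nothing.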
